A study of Zea mays with 48 samples.

Results

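Tubulins are the building blocks of microtubules, and 5 tubulin names of the maize array were followed here through time, side and polysome loading. The array's probe annotation names tua4, TUA1, tub6, tub7 or TUBC, as a symbol or a synonym, for 14 of its 17545 probe sets. They belong to 6 loci of the 1108 genes that the annotation names singly, because 2 gamma tubulin loci, LOC542424 and LOC542436, both carry the synonym TUBC. A filter on low signal, described with its value further on, was passed by 11 of the 14 probe sets. The other three were a TUA1 probe set ending in _at, with a mean signal of 15.1, and 2 TUBC probe sets of LOC542436, ending in _at and _x_at, with mean signals of 5.5 and 43.3.

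An alpha and a beta tubulin pair to form the dimer from which microtubules grow, and gamma tubulin sits in the complexes that start new microtubules. In elongating plant cells, microtubules beneath the plasma membrane guide the cellulose synthase complexes and so the direction in which the wall is reinforced. TUA1 and tua4 encode alpha tubulins, tub6 and tub7 beta tubulins, and TUBC gamma tubulin. Tubulins are abundant and similar to one another, and several are read by shared probes. By the maker's naming, a probe set ending in _a_at reads several transcripts of one gene, _s_at reads transcripts of several genes, and _x_at holds probes that also match other transcripts. Probe sets are called here by gene and ending. For tub6, 3 probe sets, ending in _a_at, _at and _x_at, come from one sequence cluster of the array, called the second, and 1 ending in _at from another, called the first. For LOC542436, _at and _a_at passed the filter, and LOC542424 and tub7 have 1 probe set each. The single TUA1 probe set past the filter ends in _s_at. TUA1 and TUA2 are neighbouring loci that share an older locus name in the RefSeq table, so its signal may hold both.

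The plants were maize of the strain B73, about 6 weeks old and carrying no transgene by the labels, and the organ was the pulvinus, the stem joint that bends a fallen grass shoot upright. Plants were turned by 90 degrees and harvested after 2, 5, 15, 30 or 60 min, and the upper side, which elongates slowly, was separated from the lower side, which elongates fast. Control plants stayed vertical and gave left and right sides. For every harvest 6 pulvini were pooled, so the upper and lower side share their plants. Each frozen powder gave total RNA and polysomal RNA, the RNA bound to ribosomes in polysomes. The experiment was run in 2 growing seasons, which were taken here to be the repetition numbers of the sample labels, so each of the 24 groups holds 2 arrays, 1 per season. A time point therefore has 4 arrays in each kind of RNA, from 2 plant pools, and the 5 reoriented times have 20 arrays against 4 of vertical plants.

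Signal intensity on a linear scale was used as deposited. Across the 48 arrays the 2% trimmed mean ranged from 495.8 to 499.1 and the median signal from 174.3 to 216.9, so every value is relative to the average of its array. In such bulk samples, fewer cells of a type and less RNA per cell cannot be told apart. The polysomal array of the upper side, 5 min, season 1 stood apart. Across probe sets its r with the matching lower side was 0.903, where the other 23 pairs of sides had 0.973 to 0.992. Whether its label is right could not be settled, so what is said of the upper side at 5 min in polysomal RNA carries that doubt, and calls or levels that rest on it are given with and without it. No list of defining markers of the pulvinus was used. Of 17 kernel and 3 pollen probe sets, 2 and 0 passed the filter.

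The alpha tubulin tua4 gave signals between 7572.1 and 11994.9 in total RNA on its _a_at probe set, with a median of 9925.7, and between 6845.2 and 10549.5 in polysomal RNA, with a median of 8066.2. The second tua4 probe set, ending in _s_at, had medians of 9019.8 and 7122.4. TUA1 on its _s_at probe set ran from 1555.6 to 3424.1 in total RNA, with a median of 2623.5, and from 762.5 to 1972.1 in polysomal RNA, with a median of 1196.2. Both alpha tubulins thus had the higher median in total RNA. For TUA1 the total RNA median lay above every polysomal value, although the ranges overlapped.

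The beta tubulin tub7 ran from 5720.4 to 8741.2 in total RNA, with a median of 7251.6, and from 5147.3 to 7117.7 in polysomal RNA, with a median of 6309.5. Medians of the 4 tub6 probe sets lay between 2676.6 and 3768.6 in total RNA and between 2072.1 and 2931.7 in polysomal RNA. The ranges of total and polysomal RNA overlapped for both beta tubulins. The gamma tubulin probe set of LOC542424 had medians of 108.6 in total and 100.1 in polysomal RNA, close to the filter's lowest kept signal of 101.6. The probe sets of LOC542436 past the filter had medians of 318.5 and 341.2 (_at) and of 204.0 and 168.0 (_a_at). The _at probe set of LOC542436 was the only one of the 11 with the higher median in polysomal RNA.

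**Figure D1:**
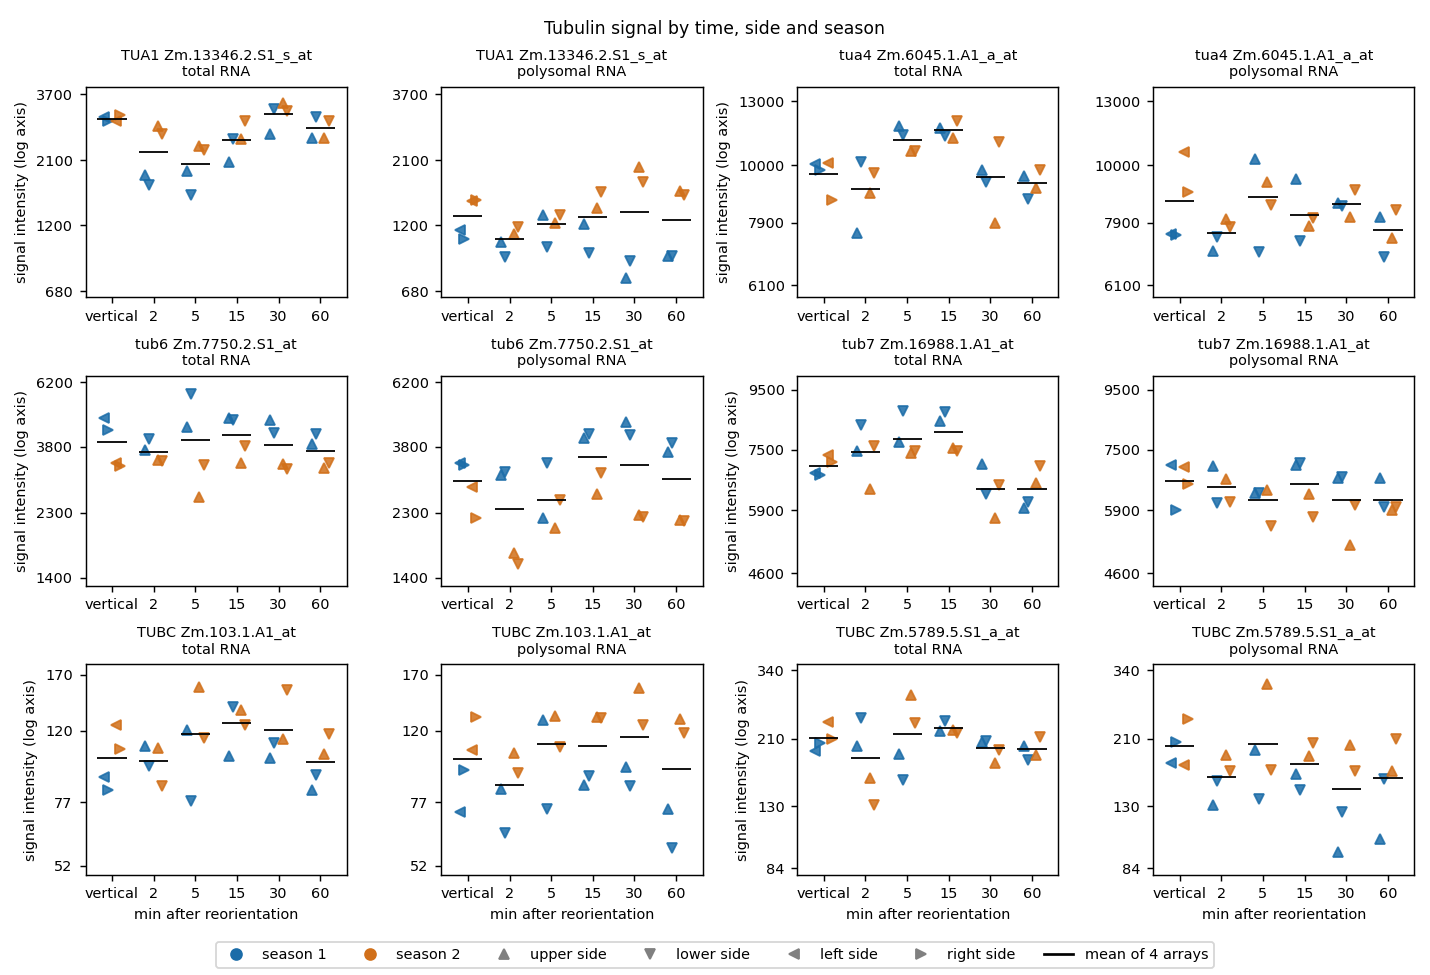
Signal intensity (log axis) of 6 tubulin probe sets in total and polysomal RNA of vertical plants and at 2 to 60 min after reorientation. Each symbol is 1 array, colours mark the season, symbol shapes the side, and black lines the mean of 4 arrays. TUA1 in polysomal RNA lies between 762.5 and 1972.1, below most of its total RNA values, and tub6 lies lower in season 2 than in season 1.

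Most of these tubulin probe sets were under-represented in polysomes. Relative to the array average, 10 of the 11 passed as having less polysomal than total signal, where 28.3% of all tested probe sets did. The 10 hold all probe sets of tub6 and of tua4, so they stand for fewer genes. The calls for tub7 and LOC542424 were lost with quantile normalization. Loading was taken per powder as the log2 of the polysomal signal minus that of the total signal, so 0 is the array average and not full or absent loading. TUA1 was lowest, at -1.08 on average (SE 0.08, 24 powders), which is 2.11 times more total than polysomal signal. The median over all 10527 tested probe sets was 0.05, and TUA1 lay at percentile 1.3. Adjusted p for TUA1 was 4.06e-09 by limma with Benjamini-Hochberg adjustment over all tested probe sets, which is how every adjusted p here was made.

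Every one of the 24 powders had TUA1 below 0, from -1.87 to -0.54. In vertical plants TUA1 stood at -1.39 (left) and -1.45 (right) in season 1 and at -0.98 and -1.04 in season 2. After 30 min it stood at -1.76 (upper) and -1.87 (lower) in season 1, and at -0.79 and -0.87 in season 2. After 5 min the values were -0.54 (upper) and -0.64 (lower) in season 1 and -0.94 and -0.81 in season 2. The highest value, -0.54, is from the array that stood apart, and without it the highest of season 1, -0.64, lay beside the -0.65 of season 2. The lowest values were of season 1, and season 2 values were closer together, with an SD of 0.17 over 12 powders against 0.47 in season 1, or 0.44 over 11 powders without the array that stood apart.

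For tua4, loading was -0.28 (SE 0.04, adjusted p 6.72e-06) on the _a_at probe set and -0.31 (SE 0.04, adjusted p 1.25e-06) on the _s_at probe set, with 21 and 23 of 24 powders below 0. Among the beta tubulins, tub6 was lower than tub7. The 4 tub6 probe sets lay between -0.53 and -0.38 (SE 0.05 to 0.09), with adjusted p from 2.94e-06 to 4.33e-05. On the second-cluster _at probe set, 24 of 24 tub6 powders were below 0, from -1.13 to -0.02, and tub7 was below 0 in 20 of 24 powders, from -0.47 to 0.17, with a mean of -0.18 (SE 0.03, adjusted p 0.000112). The difference between tub6 and tub7 was not tested.

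For the gamma tubulins, the _a_at probe set of LOC542436 stood at -0.24 (SE 0.06, adjusted p 0.00333), below 0 in 17 of 24 powders, and that of LOC542424 at -0.11 (SE 0.04, adjusted p 0.0407), below 0 in 16. Both means came mostly from season 1. The first stood at -0.43 ± 0.34 (SD, n = 12 powders) in season 1 and -0.05 ± 0.25 in season 2, and LOC542424 at -0.23 ± 0.23 and 0.02 ± 0.21. Without the array that stood apart, the season 1 means were -0.47 and -0.26. Neither season difference passed the test. The _at probe set of LOC542436 stood at 0.06 (95% interval -0.02 to 0.13, adjusted p 0.163), so the probe sets of this locus disagree in sign.

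In all, 10 of 11 tubulin probe sets passed the test as lower and 0 as higher. Most of the array passed it too: 68.5% of tested probe sets differed from the array average, 28.3% as lower and 40.1% as higher. The 10% of tested probe sets of highest signal, which hold tua4, tub6 and tub7, had a median loading of -0.04, with 58.6% below 0. The bands below had medians of 0.03 to 0.10, with 34.4% to 45.7% below 0. The part of brightness in the tubulin values was not tested. With quantile normalization, tub7 stood at -0.03 (adjusted p 0.518) and LOC542424 at -0.02 (adjusted p 0.775), and tua4 at -0.13 and -0.15, still past the test, while TUA1 stayed at -1.08. The LOC542424 call was also lost in 13 of 24 omissions of 1 powder, with adjusted p up to 0.0836 (without the lower side, 15 min, season 1). It was lost too without the season in the fit (adjusted p 0.103), with a pseudocount of 64 (0.0731) and without the filter (0.0676).

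**Figure D2:**
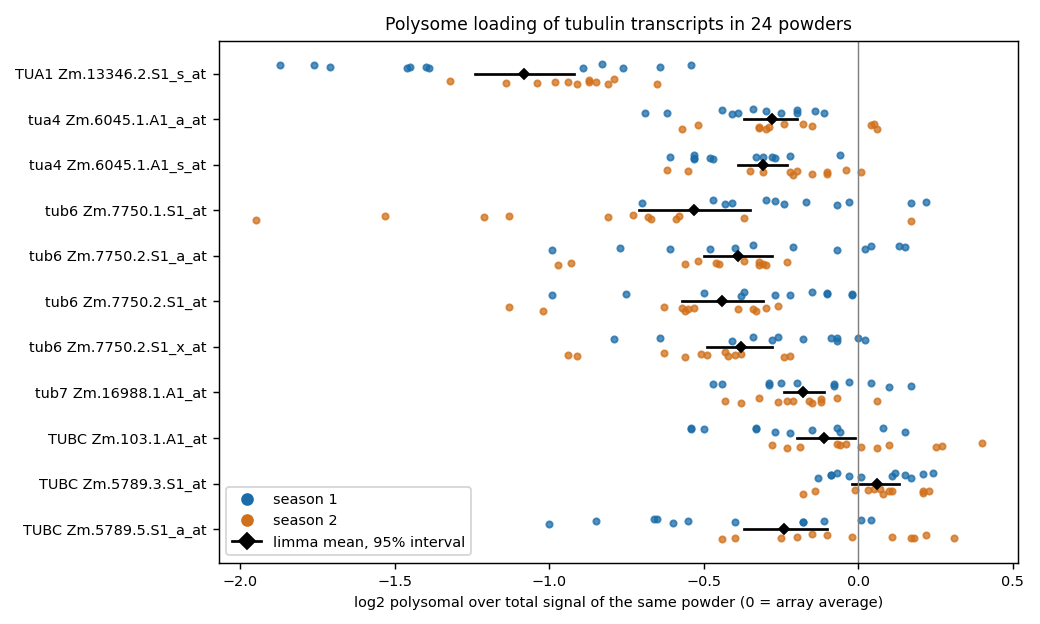
Log2 polysomal over total signal of the 11 tubulin probe sets past the filter, where 0 is the array average. Dots are the 24 powders coloured by season, and diamonds with bars are limma means with 95% intervals. TUA1 lies below 0 in 24 of 24 powders around a mean of -1.08, and the _at probe set of LOC542436 is the only probe set with a mean above 0.

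Other tubulins of the array did not share one direction of loading. Of their 7 probe sets, all past the filter, 2 passed as higher and 2 as lower, with a median of 0.01. Over all tested probe sets 40.1% passed as higher and 28.3% as lower, so these counts do not set the other tubulins apart from the array. The alpha tubulin tua5 stood at 0.10 (SE 0.03, adjusted p 0.0188) and the beta tubulin TUBB2 at 0.20 (SE 0.04, adjusted p 0.000356). The lower ones were the beta tubulins tub3, at -0.15 (SE 0.04, adjusted p 0.00505), and tub5 on its _a_at probe set, at -0.91 (SE 0.16, adjusted p 9.09e-05). The other tub5 probe set, ending in _at, stood at 0.02 (SE 0.05), so the probe sets of tub5 disagree.

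Cellulose synthases, the enzymes that microtubules guide, lay on the other side of 0. Of 13 probe sets, 12 passed as higher and 0 as lower, with a median of 0.27. CesA-6 was highest at 0.50 (SE 0.04), followed by CesA-5 at 0.43 (SE 0.04), and CesA-7 at 0.03 (SE 0.03, adjusted p 0.346) did not pass. Of 10 probe sets of the actin cytoskeleton and of motor proteins past the filter, out of 19, 4 passed as higher, close to the share of 40.1% over the array, and 1 as lower, with a median of 0.06. KIN9 and kin15, kinesins that move along microtubules, stood at 0.73 (SE 0.05) and 0.49 (SE 0.04). KIN1, at 0.30 (SE 0.05), and the myosin myo1, at 0.29 (SE 0.04), were the other higher ones, and the profilin PRO4, which binds actin, was the lower one at -0.08 (SE 0.03). The list of microtubule-associated proteins matched no probe set by gene name. The annotation names a gene for only 1453 of the 17545 probe sets, so this does not show that the array lacks them. The difference between the lists was not tested.

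**Figure D3:**
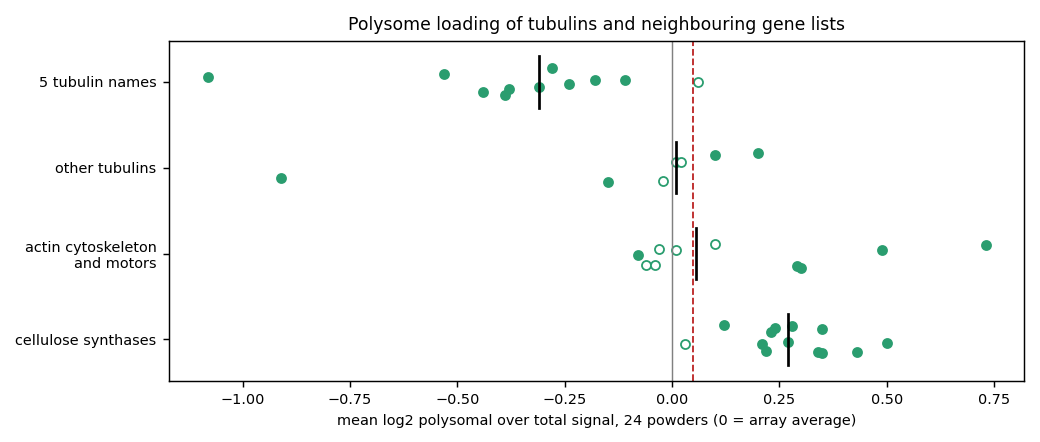
Mean log2 polysomal over total signal per probe set for the 5 tubulin names, the other tubulins, the actin cytoskeleton with motors, and the cellulose synthases. Filled dots passed the adjusted p threshold of 0.05, black bars are list medians and the dashed line is the median of all tested probe sets, 0.05. List medians are -0.31, 0.01, 0.06 and 0.27 in that order.

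Loading of the tubulins did not detectably change when plants were laid down. For the mean of 5 times against vertical plants, 0 of 11 passed the limma test in loading, where 0% of all probe sets did, and 0 had an unadjusted p under 0.05 (2.74% of all). The tubulin estimates lay between -0.19 and 0.16, all with adjusted p of 1.0. The moderated F over the 5 times also passed for 0 of 11 (0% of all probe sets, and 1 of 11 at an unadjusted p under 0.05, as 4.55% of all), and so did the mean of lower minus upper side (0% of all, and 3 of 11 unadjusted, as 5.3% of all). For TUA1 the change in loading was 0.16 with a 95% interval of -0.26 to 0.59, so changes of that size cannot be told from none here.

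The level of the tubulins after reorientation, the study's main comparison, gave no call in either kind of RNA when averaged over time. Averaged over the 5 times, 0 of 11 passed in total RNA, where 0.427% of all tested probe sets did, and 0 of 11 in polysomal RNA, where 1.44% did. At an unadjusted p under 0.05 the counts were 1 and 0, beside 11% and 13.9% of all. Estimates lay between -0.27 and 0.13 in total RNA, with a median of 0, and between -0.25 and 0.19 in polysomal RNA, with a median of -0.05, against a median of -0.01 for all tested probe sets in total RNA. The lowest in total RNA was TUA1, at -0.27 (SE 0.11, 95% interval -0.51 to -0.03, adjusted p 0.394). The lowest in polysomal RNA was the _a_at probe set of LOC542436 (TUBC), at -0.25 (SE 0.14, adjusted p 0.449).

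Taken time by time, 0 of 11 passed at 2, 5, 15, 30 and 60 min in total RNA, where 0.0095%, 0.019%, 2.78%, 1.07% and 0.323% of all tested probe sets passed. In polysomal RNA it was likewise 0 of 11, where 0%, 0.551%, 3.79%, 2.45% and 1.46% passed. At 2 min the tubulin estimates were below 0 for 10 of 11 in total RNA (median -0.09) and for 11 of 11 in polysomal RNA (median -0.27, from -0.50 to -0.03), with 3 of the latter at an unadjusted p under 0.05 (7.29% of all). The median over all tested probe sets at 2 min was 0.001 in total and 0.018 in polysomal RNA. Comparisons at all these times share the 4 vertical arrays of each kind of RNA, so the estimates are not independent.

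TUA1 in total RNA read 3032.1 (left) and 2935.8 (right) in season 1 and 2937.9 and 3089.1 in season 2 in vertical plants. At 5 min it read 1909.1 (upper) and 1555.6 (lower) in season 1 and 2373.4 and 2299.2 in season 2. The 5 min values were all below every vertical value, a difference of -0.58 on the log2 scale (SE 0.15, 95% interval -0.89 to -0.26) that did not pass after adjustment (0.462). At 2 min the signal was 1852.1 (upper) and 1701.5 (lower) in season 1 and 2805.8 and 2630.4 in season 2, again below every vertical value, with a difference of -0.45 (SE 0.15, adjusted p 0.447). By 30 min, at 2616.6 (upper) and 3267.0 (lower) in season 1 and 3424.1 and 3198.5 in season 2, its values overlapped those of vertical plants. In polysomal RNA, TUA1 overlapped the vertical plants at every time, and its 5 min mean of 1209.0 ± 148.4 (SD, n = 4 arrays) stood beside 1297.6 ± 222.9 in vertical plants. Without the array that stood apart, the 5 min mean was 1176.8 ± 163.8 (n = 3 arrays).

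The alpha tubulin tua4 and the beta tubulin tub7 had their highest mean total RNA signal at 15 min, although the highest single tub7 signal, 8741.2, was of the lower side at 5 min. On the _a_at probe set, tua4 read 11664.7 (upper) and 11275.2 (lower) in season 1 and 11190.6 and 11994.9 in season 2 at 15 min, against 10029.2 (left), 9822.2 (right), 10093.8 and 8656.9 in vertical plants. Its 15 min values lay above all vertical ones, and the difference was 0.26 (SE 0.14, 95% interval -0.03 to 0.55, adjusted p 0.396). On the _s_at probe set the difference at 15 min was 0.20 (SE 0.08, adjusted p 0.230). For tub7, 8385.3 (upper), 8702.9 (lower), 7560.3 and 7474.6 at 15 min stood against 6843.6 (left), 6777.0 (right), 7356.6 and 7146.7 in vertical plants, a difference of 0.19 (SE 0.11, adjusted p 0.442). Both genes then read lower at 30 min, with 30 minus 15 min at -0.28 (SE 0.08, adjusted p 0.213) for tua4 on the _s_at probe set and -0.33 (SE 0.11, adjusted p 0.348) for tub7. None of these differences passed the test.

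Counted by range, the values of vertical and reoriented plants in total RNA did not overlap for 1 of 11 tubulin probe sets at 2 min (6.74% of all tested probe sets), for 3 at 5 min (6.1%) for 4 at 15 min (12.5%) and for 0 at 30 and 60 min (9.42% and 7.97%). These were TUA1 at the first 3 times, tua4 on the _a_at probe set and tub7 at 5 and 15 min, and tua4 on the _s_at probe set at 15 min. In polysomal RNA at 5 min it was 1 of 11, the _at probe set of LOC542436 (TUBC) (5.55% of all), and at 2, 15, 30 and 60 min it was 0 of 11 (4.49%, 11.9%, 8.89% and 9.54%). That probe set read 411.7 (upper) and 358.0 (lower) in season 1 and 464.9 and 392.8 in season 2, against 328.8 to 352.1 in vertical plants. Its difference was 0.24, with an adjusted p of 0.492, and 0.29 with 0.371 without the array that stood apart, where the ranges still did not overlap. The 4 arrays of a time come from 2 pools, so such a count rests on fewer plants than arrays.

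Green tissue markers had estimates below 0 after reorientation: 10 of the 11 probe sets of that list passed the filter, and 10 of 10 had an estimate below 0 averaged over the 5 times, with medians of -0.36 in total and -0.37 in polysomal RNA, and none passed. The medians over all tested probe sets were -0.007 and 0. The summed signal of the green tissue markers in total RNA ran from 21406.9 to 23921.1 in vertical plants and from 8638.7 to 21706.5 at 30 min. Its median was 23049.4 in vertical plants and 22279.8, 25186.6, 18390.1, 14368.0 and 18609.2 at 2, 5, 15, 30 and 60 min. At 5 min the median thus lay above that of vertical plants, and at every time the ranges overlapped. Markers of dividing cells, 9 of 17 past the filter, had a median of 0.02 in total RNA, with a summed signal of 16935.1 to 19012.2 in vertical plants of 14799.4 to 16479.2 at 15 min, of 12208.3 to 17450.0 at 30 min and of 14457.5 to 15978.0 at 60 min. The sums at 15 and 60 min lay below all those of vertical plants, in total as in polysomal RNA. The 17 probe sets had a median mean signal of 145.2, so the sums rest mostly on the brighter ones. At 15 min 1 of the 9, a histone his1 probe set, passed as lower in total RNA (-1.26, adjusted p 0.0166), where 2.78% of all tested probe sets passed. In polysomal RNA, where 3.79% passed, another his1 probe set passed as lower (-0.73, adjusted p 0.0497). PCNA, the sliding clamp of DNA replication, passed there as higher (0.98, adjusted p 0.0286), and it passed at 30 min too. The his1 and PCNA probe sets were named after their values were seen. The part of either marker list in the tubulin values was not tested.

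Compared among the 5 reoriented times alone, without the vertical plants, 0 of 11 tubulin probe sets differed in total RNA (3.73% of all tested, and 3 of 11 at an unadjusted p under 0.05, as 17.4% of all). In polysomal RNA 2 of 11 did (5.86% of all tested), both of tub6: the _a_at probe set with an adjusted p of 0.0299 and the _x_at probe set with 0.0348, by limma's moderated F. The third tub6 probe set of that cluster, ending in _at, had 0.0818, and the first-cluster probe set had 0.206.

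On the _a_at probe set, polysomal tub6 read 1805.1 (upper) and 1967.2 (lower) in season 1 and 1362.4 and 1243.3 in season 2 at 2 min. At 15 min it read 3070.4 (upper) and 3106.4 (lower) in season 1 and 2226.5 and 2088.2 in season 2. Within each season the 15 min values were above the 2 min values on both sides. Means ± SD over 4 arrays fell in the order 2622.9 ± 540.7 at 15 min, 2579.5 ± 844.5 at 30 min, 2231.1 ± 310.1 in vertical plants, 2104.2 ± 517.7 at 60 min, 1872.0 ± 359.0 at 5 min (2004.3 ± 297.2 over 3 arrays without the one that stood apart) and 1594.5 ± 346.6 at 2 min, and neighbours in this order differed by less than the larger of their SDs. These SDs hold both seasons, and sorting leaves small gaps between neighbours, so their closeness does not decide the order. In total RNA the same probe set had means between 2545.4 and 2938.7, with the highest at 15 min and the lowest at 60 min.

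A moderated F over the 5 differences from vertical plants gave a like result: it passed for 0 of 11 in total RNA (3.85% of all tested, and 3 of 11 unadjusted, as 17.6% of all) and for 1 of 11 in polysomal RNA (6.23% of all tested). That one was the tub6 _a_at probe set, with an adjusted p of 0.0427, a call lost in 20 of 24 omissions, with adjusted p up to 0.105 without the lower side, 2 min, season 2. It was also lost without the season in the fit (adjusted p 1.0) and without the trend (0.0565).

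These tub6 calls were sensitive to single arrays. The call on the _a_at probe set was lost in 8 of 24 omissions, with adjusted p up to 0.0804 without the lower side, 2 min, season 2, and that on the _x_at probe set in 15 of 24, up to 0.0854 without the same array. Both remained without the array that stood apart, where the count was 2. From 5 to 15 min the difference was 0.48, 0.46 and 0.43 on the _a_at, _at and _x_at probe sets, with adjusted p of 0.0954, 0.105 and 0.0734. Without the array that stood apart these were 0.34, 0.35 and 0.34, with adjusted p of 0.228, 0.255 and 0.183.

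Between adjacent times, 0 of 11 tubulins passed in total RNA from 2 to 5, 5 to 15, 15 to 30 and 30 to 60 min, where 0%, 2.07%, 0.266% and 0% of all tested probe sets passed. In polysomal RNA it was also 0 of 11, where 0.104%, 4.34%, 0.389% and 0.304% passed. With the 6 conditions ordered by mean signal, 52 of 55 neighbouring pairs in total RNA and 54 of 55 in polysomal RNA lay within the larger of their SDs. Sorting leaves small gaps between neighbours, and these SDs hold both seasons, so the count does not decide whether the times differ. The exceptions in total RNA were tua4, between 5 min and vertical plants on the _a_at probe set and between 15 and 5 min on the _s_at probe set, and tub7, between vertical plants and 60 min. The polysomal exception was TUBC on the _at probe set of LOC542436, between 5 and 15 min.

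**Figure D4:**
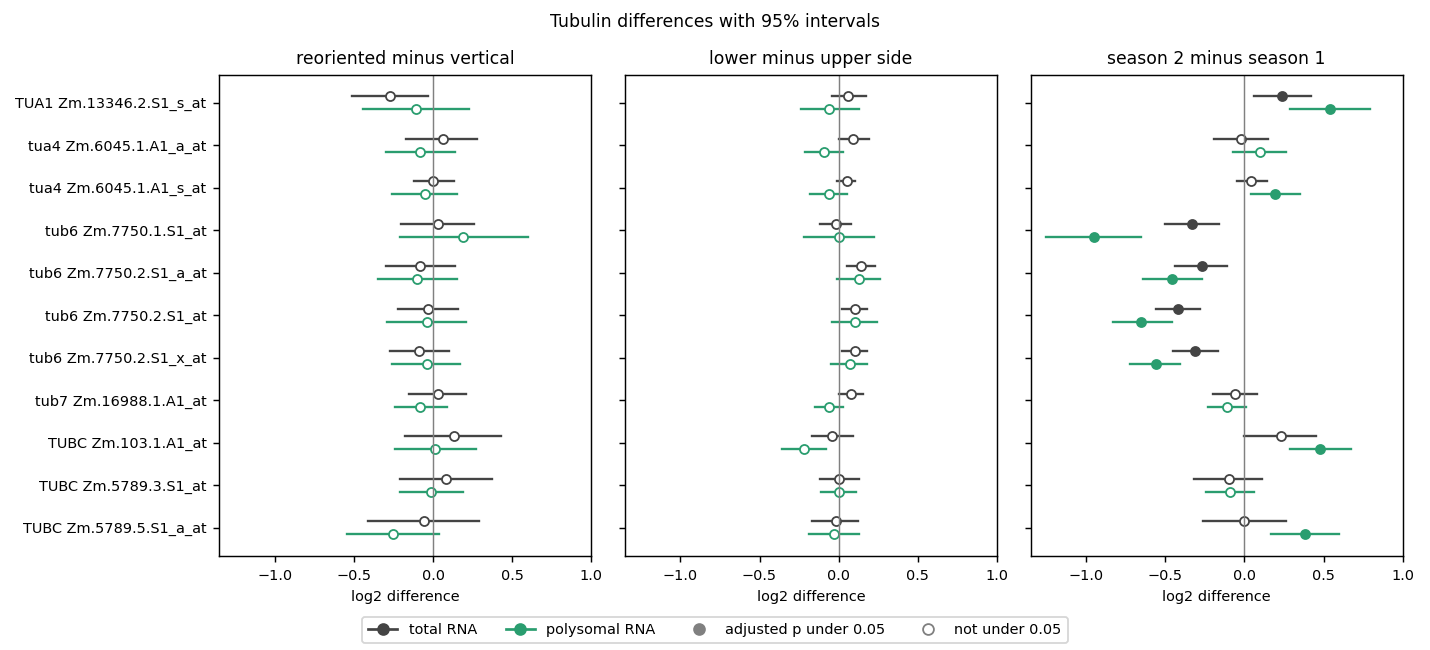
Log2 differences of the 11 tubulin probe sets with 95% intervals from limma, in total and polysomal RNA. Panels show reoriented minus vertical plants averaged over 5 times, lower minus upper side averaged over 5 times, and season 2 minus season 1. Filled circles have an adjusted p under 0.05; there are 0 in the first 2 panels, and 5 in total and 8 in polysomal RNA for the season.

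The fast and the slow side of the bending pulvinus gave no tubulin call on average over time. Averaged over the 5 times, 0 of 11 differed between the lower and the upper side in total RNA and 0 of 11 in polysomal RNA, where 0% of all tested probe sets passed in either. At an unadjusted p under 0.05 the counts were 3 and 1, beside 6.62% and 9.3% of all. In total RNA the 3 second-cluster probe sets of tub6 were higher by 0.10 to 0.14 on the lower side (adjusted p from 0.509 to 0.657). Polysomal TUBC of LOC542424 had the lowest value, -0.22 (SE 0.07, 95% interval -0.36 to -0.08, adjusted p 0.278). Without the polysomal array of the upper side, 5 min, season 2, it passed, as 1 of 11, at -0.26 with an adjusted p of 0.0288.

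Between the right and the left side of vertical plants, 0 of 11 differed in total RNA (0.019% of all) and 0 of 11 in polysomal RNA (0% of all), with 0 unadjusted in both (5.47% and 3.38% of all). The difference of the 2 contrasts, which asks whether the side effect appears with reorientation, passed for 0 of 11 in total and 0 of 11 in polysomal RNA (0% of all in each, with 2 and 1 unadjusted, beside 6.35% and 5.05% of all).

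At 5 min 0 of 11 passed in total RNA (0% of all), and 2 of 11 passed in polysomal RNA, where 12% of all probe sets did. One was tub6 on the _x_at probe set, which read 2953.8 (lower) and 2019.1 (upper) in season 1 and 2145.5 and 1793.5 in season 2, a difference of 0.40 (SE 0.12, adjusted p 0.0437). The lower side was higher in both seasons, and also in total RNA, with 4614.8 against 3501.0 and 2881.9 against 2332.4, a difference of 0.35 (SE 0.08, adjusted p 0.509). The other was TUBC on the _a_at probe set of LOC542436, which read 136.6 (lower) and 194.3 (upper) in season 1 and 168.7 and 308.4 in season 2, a difference of -0.64 (SE 0.17, adjusted p 0.0242). Here the upper side was higher in both seasons.

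At 5 min the TUBC call rests on each of the polysomal 5 min arrays alike. The tub6 call rests most on the upper array of season 1 that stood apart. Without it 0 of 11 passed, and tub6 had an adjusted p of 0.549 and TUBC of 0.114. Omitting any of the other three 5 min arrays also ended the TUBC call, with adjusted p of 0.148 without the lower side of season 1, 0.105 without the upper side of season 2 and 0.123 without the lower side of season 2. The tub6 call was lost in 17 of 24 omissions, and without the plant pool block 0 of 11 passed. Without the season in the fit, tub6 had an adjusted p of 0.186.

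At the other times, lower minus upper passed for 0 of 11 at 2, 15, 30 and 60 min in total RNA (0%, 0.038%, 0% and 0.266% of all) and for 0 of 11 in polysomal RNA (0%, 0%, 0% and 0.0095% of all).

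Growing season separated the beta tubulin tub6 and the alpha tubulin TUA1 in opposite directions. In total RNA 5 of 11 tubulin probe sets differed between seasons, close to the share of 43.3% over all tested probe sets. Of these 5, 4 were probe sets of tub6. In polysomal RNA 8 of 11 differed, where 46.6% did. The season here also stands for whatever else differed between the 2 repetitions, and these cannot be told apart.

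All 4 tub6 probe sets were lower in season 2. In total RNA, tub6 on the second-cluster _at probe set ran from 3706.3 to 5672.9, with a median of 4364.8, in season 1 and from 2584.4 to 3831.0, with a median of 3339.3, in season 2. The season 2 range barely overlapped that of season 1, and the difference was -0.42 (SE 0.07, adjusted p 0.000133). In polysomal RNA the ranges were 2209.1 to 4568.2 (median 3498.6) and 1548.9 to 3104.8 (median 2215.6), a difference of -0.65 (SE 0.09, adjusted p 4.99e-05). The largest season difference of the 11 was polysomal tub6 on the first-cluster probe set, at -0.95 (SE 0.14, adjusted p 0.000103), with a median of 2877.5 in season 1 and 1466.0 in season 2. None of the 8 tub6 calls was lost by omitting any 1 of 24 arrays.

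TUA1 was higher in season 2, by 0.24 in total RNA (SE 0.09, adjusted p 0.0302) and by 0.54 in polysomal RNA (SE 0.12, adjusted p 0.00183). Its polysomal signal ran from 762.5 to 1305.4, with a median of 968.4, in season 1 and from 1117.4 to 1972.1, with a median of 1488.1, in season 2. The total RNA call was lost with quantile normalization, at 0.19 and an adjusted p of 0.0904. Polysomal gamma tubulin was also higher in season 2, by 0.48 (SE 0.09, adjusted p 0.000611) for LOC542424 and by 0.38 (SE 0.10, adjusted p 0.00636) for the _a_at probe set of LOC542436. The tua4 _s_at probe set was higher in polysomal RNA by 0.19 (SE 0.07, adjusted p 0.0406), a call lost in 14 of 24 omissions, with adjusted p up to 0.0713 without the upper side, 2 min, season 1. For tub7 the season difference was -0.06 in total RNA (95% interval -0.20 to 0.08) and -0.11 in polysomal RNA (-0.23 to 0.01), neither of which passed.

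Loading differed between seasons for 1 of 11, tub6 on the first-cluster probe set, where 9.16% of all tested probe sets did. Its mean log2 loading was -0.22 ± 0.27 (SD, n = 12 powders) in season 1 and -0.84 ± 0.56 (n = 12) in season 2, a difference of -0.62 (SE 0.17, adjusted p 0.0348). The other three tub6 probe sets differed in the same direction by -0.25 to -0.18 without passing.

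The tubulins varied with one another only in part. Over the 12 group means of total RNA, the 3 tub6 probe sets of the second cluster correlated at r = 0.773 to 0.888, and in polysomal RNA at 0.960 to 0.982. The first-cluster probe set correlated with them at -0.148 to 0.008 in total and 0.578 to 0.648 in polysomal RNA. Probe sets annotated to one locus thus did not vary together in total RNA, where no tub6 probe set differed among the times. Whether their courses differ was not tested. The pair for tua4 stood at 0.793 and 0.734. In total RNA, tua4 followed tub7 (0.726 and 0.756), and TUA1 ran against tub7 at -0.680. All these r are descriptions over group means that share arrays, scaling and seasons.

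By likeness over all 24 group means, with the 3 most similar annotated probe sets per member, TUA1 was closest to SH-1 (r = 0.944), cat1 (0.935) and vdac1b (0.931). The tua4 _a_at probe set was closest to csu503(met) (0.909), TCTP (0.908) and grp1 (0.907), and the _s_at probe set to TCTP (0.941). On the second-cluster _at probe set, tub6 was closest to ANT-G2 (0.907), gdh1 (0.869) and eIF4E1 (0.861). tub7 was closest to elfa3 (0.866), arpp3 (0.856) and eIF-4A (0.855). Of the gamma tubulins, the _at probe set of LOC542436 was closest to bk2 (0.777) and cesa10 (0.771), the _a_at probe set of LOC542436 to uaz7c01b01 (0.877), copz2 (0.864) and hir2 (0.851), and LOC542424 reached no r above 0.65. Total and polysomal means enter together, so a shared loading raises these r.

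Beyond the 5 names, the wider wall and cytoskeleton lists also gave no call for reorientation. Averaged over 5 times, 0 of 7 other tubulins, 0 of 10 actin and motor probe sets and 0 of 13 cellulose synthases passed in total or in polysomal RNA. Of all tested probe sets 0.427% passed in total and 1.44% in polysomal RNA, so these counts do not set the lists apart from the array. The other tubulins had medians of -0.16 in total and -0.20 in polysomal RNA, with the lowest polysomal values for tub5 on its _a_at probe set, at -0.48 (SE 0.38), and tub4, at -0.28 (SE 0.10, adjusted p 0.193). Cellulose synthases had medians of -0.04 and -0.09, and actin and motors of 0 and -0.11. At 2 min, 7 of 7 other tubulins and 13 of 13 cellulose synthases had an estimate below 0 in both kinds of RNA. Their medians in total RNA were -0.36 and -0.25, and none passed, where 0.0095% of all tested probe sets did in total and 0% in polysomal RNA. The median over all tested probe sets at 2 min was 0.001 in total and 0.018 in polysomal RNA. All these estimates share the 4 vertical arrays of each kind of RNA, so their common sign is not independent evidence.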

How the data were processed

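The authors deposited 1 table of signal intensity on a linear scale, made with GCOS per the submitters' processing notes; its version, scaling target and detection calls are not given in the sources used here. The value of every array was used as deposited. Here log2(signal + 16) was taken, and the lower 40% of probe sets by mean log2 signal (below about 101.6) were left out, which kept 10527 of 17545. A pseudocount understates folds of low signals.

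Separate fits were made in limma 3.58.1 (statmod 1.5.0, R 4.3.3) with lmFit and eBayes with a trend: 24 total RNA arrays, 24 polysomal arrays and 24 powder differences. Each had 12 groups, the season as a fixed effect and the plant pool as a random block by duplicateCorrelation, whose correlation was 0.575, 0.38 and 0.195; 11 residual degrees of freedom remained. Both sides of a time come from the same 6 plants. P-values were adjusted by Benjamini-Hochberg over all 10527 probe sets, with a threshold of 0.05, and SE is that of the contrast. The number of arrays limits the precision. Scripts were tested on simulated data.

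The design text gives 2 growing seasons as the 2 repetitions; the sample labels give only a repetition number, taken here as the season. Departures from group means in the same season went together across probe sets: over 66 group pairs, r had a median of 0.621 in total RNA, with a range of 0.505 to 0.892, and of 0.661 in polysomal RNA, with a range of -0.0268 to 0.896.

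Members, gene lists and tests were chosen with earlier results of these data known. All tubulin probe sets were named; of each list, those past the loading test or with the largest mean responses were named, and likeness was Pearson's r over 24 group means. Gene names come from the platform annotation, which names a gene for 1453 probe sets, updated through a RefSeq table of another build, so no coordinates are given. The Entrez gene of tua4 was not matched there. Alternatives left out the season, the plant pool block, the filter, the trend or each array in turn, or used quantile normalization, pseudocounts of 1 and 64 or a filter at the 60th percentile.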

Additional observations from a re-analysis of the deposited data

Results flagged for a closer look

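The polysome loading of tub6 on its first-cluster probe set differed between the 2 seasons by -0.62 on the log2 scale (season 2 minus season 1, SE 0.17, limma adjusted p 0.0348), by a test of that difference. It was the only one of 11 tubulin probe sets to do so, where 9.16% of all tested probe sets did, so the count is close to the share over the array. The call was lost without the filter on low signal (adjusted p 0.0708) and in 12 of 24 omissions of 1 powder, over which the difference lay between -0.69 and -0.53 and the adjusted p reached 0.0766 without the upper side, 2 min, season 1. The cause was not tested.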

How the results depend on the processing

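Counts of tubulin probe sets past the threshold moved as follows. Without the replicate block (season left out of the fit), 0 of 11 differed among the 5 times in polysomal RNA, 1 differed between sides at 5 min in polysomal RNA, and 0 passed the F over the 5 differences from vertical plants in polysomal RNA; the replicate block changed no other count by over 1.5 times, and a season count has no value without it. Without the plant pool block, 1 of 11 changed at 15 min in total RNA, 4 differed among the times in total RNA and 0 between sides at 5 min in polysomal RNA. For the side at 5 min in polysomal RNA the count was 6 with quantile normalization and 0 without the filter, which tests more probe sets. Without the trend, 1 differed among the times in polysomal RNA. For the F over the 5 differences from vertical plants, whose alternatives were added after seeing the data, the count in polysomal RNA was 3 without the plant pool block, 2 without the filter, 2 with a pseudocount of 64 and 0 without the trend, and in total RNA 4 without the plant pool block and 1 without the filter. Omitting 1 array gave it 0 to 3 in polysomal RNA (3 without the upper side, 5 min, season 2, and 2 without the array that stood apart) and 0 to 1 in total RNA (1 without the lower side, 30 min, season 2, or the upper side, 30 min, season 1). Omitting 1 array at a time gave 0 to 1 among the times in total RNA (1 without the lower side, 30 min, season 2) and 0 to 3 in polysomal RNA (17 of 24 omissions moved it by over 1.5 times). It gave 0 to 6 between sides at 5 min in polysomal RNA (6 without the upper side, 5 min, season 2) and 0 to 1 for the mean side difference there. Loading gave 9 to 10 of 10 calls, season 5 to 6 in total and 7 to 8 in polysomal RNA. No result changed sign under these settings. Where not stated, the cause was not tested. Signals near the filter, as for LOC542424, limit what can be read of gamma tubulin.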
